A study of Mus musculus with 6 samples.

Results

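The YTH family of m6A readers and MEIOC, the meiotic partner of YTHDC2, were followed on their own transcripts in m6A-seq of male mouse germ cells. The 6 genes, Ythdf1, Ythdf2, Ythdf3, Ythdc1, Ythdc2 and Meioc, were taken by gene name from the authors' deposited tables of peaks. They carried 12 of the 24127 peaks in the comparison of ClpP cKO with WT and 12 of the 23681 peaks in that of ClpX cKO with WT. That is 6 of 13334 named genes in the ClpP table and 5 of 13085 in the ClpX table, from which no peak of Ythdc2 was read. In m6A-seq, RNA fragments captured by an antibody against N6-methyladenosine (IP) are sequenced beside the RNA before capture (input), and a peak is a stretch of transcript enriched in the IP library. The 3 genotypes were WT, ClpP knockout and ClpX knockout, both knockouts (cKO) made in male germ cells with Stra8-Cre, a recombinase driven by a promoter of premeiotic germ cells. ClpP is the protease and ClpX the unfoldase of the ClpXP complex of the mitochondrial matrix. All cells were primary male germ cells of day 35, named spermatocytes in the sample titles, and whether the WT animals carried Cre or floxed alleles is not given in the labels. There was 1 IP and 1 input library per genotype, and none of the values has an error between replicates.

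The YTH domain is a pocket that binds N6-methyladenosine in RNA. YTHDF1, YTHDF2 and YTHDF3 act in the cytoplasm, where YTHDF2 brings bound mRNA to the CCR4-NOT deadenylase. YTHDC1 acts in the nucleus on splicing and export, and YTHDC2 is an RNA helicase that works with MEIOC as germ cells enter meiosis. The values below describe m6A on the mRNAs of these proteins, not the proteins or what they bind.

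Levels in single libraries were not used here. For each peak the authors' deposited tables give a fold enrichment of IP over input, which is 1 linear value over all libraries of the table, and a log2 fold change of that enrichment between genotypes. A positive log2 fold change is read as more enrichment in the knockout, a direction that rests only on each table naming the knockout before WT. Every sign turns if the ratio runs the other way. A peak is called at an adjusted p under 0.05 for the genotype difference, as computed by the authors, and a call compares these libraries and not the genotypes in general. Peaks are numbered from the 5′ end of each gene, and coordinates are on GRCm38 (mm10).

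Of the fixed marker genes of spermatocytes, 11 of 12 carried a peak in the ClpP table and 8 of 12 in the ClpX table, and no peak of Ccna1 was read from either. Each marker gene was read by its peak of smallest p, and over all genes read in this way 9.5% were called higher and 19.3% lower for ClpP, and 21.7% higher and 7.58% lower for ClpX, with medians of -0.16 and 0.36. Spermatocyte markers had 1 call higher and 2 lower for ClpP and 1 of each for ClpX, with medians of 0.03 and -0.02. Of 8 spermatid markers 2 were called higher and 2 lower for ClpP, and 5 higher and 0 lower for ClpX, with medians of 0.21 and 0.58. The spermatid peaks of the ClpX table had a median fold enrichment of 2.79, against 8.97 over all genes. After the median of like-enriched peaks was subtracted, Prm2 stayed called higher for ClpX, at 0.63. The ClpX calls on Tnp1, Tnp2 and Spaca1 were lost, and Prm1 (-0.28), Acrv1 (-1.13) and Akap4 (-0.33) were called lower. Spermatogonial markers had 1 higher and 1 lower, then 4 higher and 0 lower, of 6 with a peak (medians 0.95 and 1.17), and Sertoli markers 1 higher and 1 lower, then 1 higher and 2 lower, of 6 (medians -0.09 and 0.18). Of 12 marker genes of Leydig, peritubular, endothelial and immune cells, 4 and 7 carried a peak, of which 2 and 4 were called higher and 0 lower in the authors' deposited tables, with medians of 1.25 and 2.09. Their ClpX peaks had a median fold enrichment of 3.56. Relative to like-enriched peaks the ClpX calls on Insl3, Cyp17a1, Col1a1 and C1qc stood, and Hsd3b1 was also called higher (0.65). For ClpP the call on Myh11 stood and that on Col1a1 was lost. The ClpX peak of Insl3 shares bases with a peak of Jak3. The part of other cells in the values of the YTH genes was not tested. A peak reports methylation relative to input, so a marker without a peak is not shown to be absent.

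The 5′ end of Ythdc1 is the one place where an available sequence meets a peak on these genes, and it is shown for where that peak begins. Peak 1 of Ythdc1 covered 86804251 to 86804490 of chromosome 5 (plus strand) in the ClpP table and 86804281 to 86804490 in the ClpX table. Both 5′ edges lay inside the RefSeq gene span, which begins at 86803980, by 271 bases (ClpP) and 301 bases (ClpX). The RefSeq promoter table (GRCm38.p6) places a start site at 86804266, so the 5′ edge of the peak lay 15 bases before it in the ClpP table and 15 bases after it in the ClpX table. The 30 bases at chr5:86804251-86804280 are given 5′ to 3′, with bases from that start site onward in capitals.
Ythdc1 start: gcaggctccattttaGCGCCGCCCGGCGTC
The letters GGAC, the core of the most common m6A motif, occurred 0 times on either strand in the 65 bases that the ClpP peak shares with the promoter window. They occurred on the transcript strand of 23.0% of the 32851 windows of the same place and length, and on either strand of 39.9%. The remaining bases of this peak, and the other peaks, were not searched.

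In ClpP cKO, enrichment was lower on all 3 cytoplasmic reader mRNAs. For Ythdf1 peak 1 the authors' deposited table gave a log2 fold change of -0.86, an enrichment 0.55 times that of WT, with an adjusted p of 1.78e-08. Ythdf2 peak 1 had -0.71 (0.61 times WT, adjusted p 3.98e-14) in the authors' deposited table. Ythdf3 peak 1 had -0.94 (0.52 times WT, adjusted p 5.01e-10) in the authors' deposited table. These decreases lay close together, and the 95% intervals implied by each p and log2 fold change overlapped, at -1.13 to -0.58 for Ythdf1, -0.88 to -0.54 for Ythdf2 and -1.21 to -0.66 for Ythdf3. The intervals cover the error of the authors' test within these libraries, not the spread between animals. A weaker site at the 3′ end of Ythdf1 (peak 2) had 0.09 and was not called in the authors' deposited table (adjusted p 0.596).

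The 3 called Ythdf peaks share a form that the choice of genes did not use. Each was among the longest of the ClpP table, at percentiles 98.2, 98.7 and 99.0 of length, and each was made of 1 long block with shorter blocks beside it. Such length was not particular to the Ythdf genes or to called peaks. The uncalled Ythdc1 peak 3 and Meioc peak 1 of that table stood at percentiles 98.0 and 98.3. The longest block made up 99.6% of that Ythdc1 peak, and the Meioc peak was 1 block. On Ythdf1 (chromosome 2, minus strand) the long block ran from 180910687 to 180912207, 1521 bases, which is 90.9% of the 1673 bases of the peak. Its edges were identical in the ClpX table. On Ythdf2 (chromosome 4, minus strand) it ran from 132204132 to 132205711, 1580 bases or 83.9% of the peak, and on Ythdf3 (chromosome 3, plus strand) from 16203894 to 16205424, 1531 bases or 75.1%. The gaps between blocks are stretches of the gene that the authors' peak leaves out, and whether each block is an exon was not analysed here. Fold enrichments of IP over input were 15.2 for Ythdf1, 22.4 for Ythdf2 and 52.2 for Ythdf3 in the authors' deposited table, against a median of 8.23 over all peaks. The Ythdf3 peak was more enriched than 98.9% of peaks of the table.

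**Figure D1:**
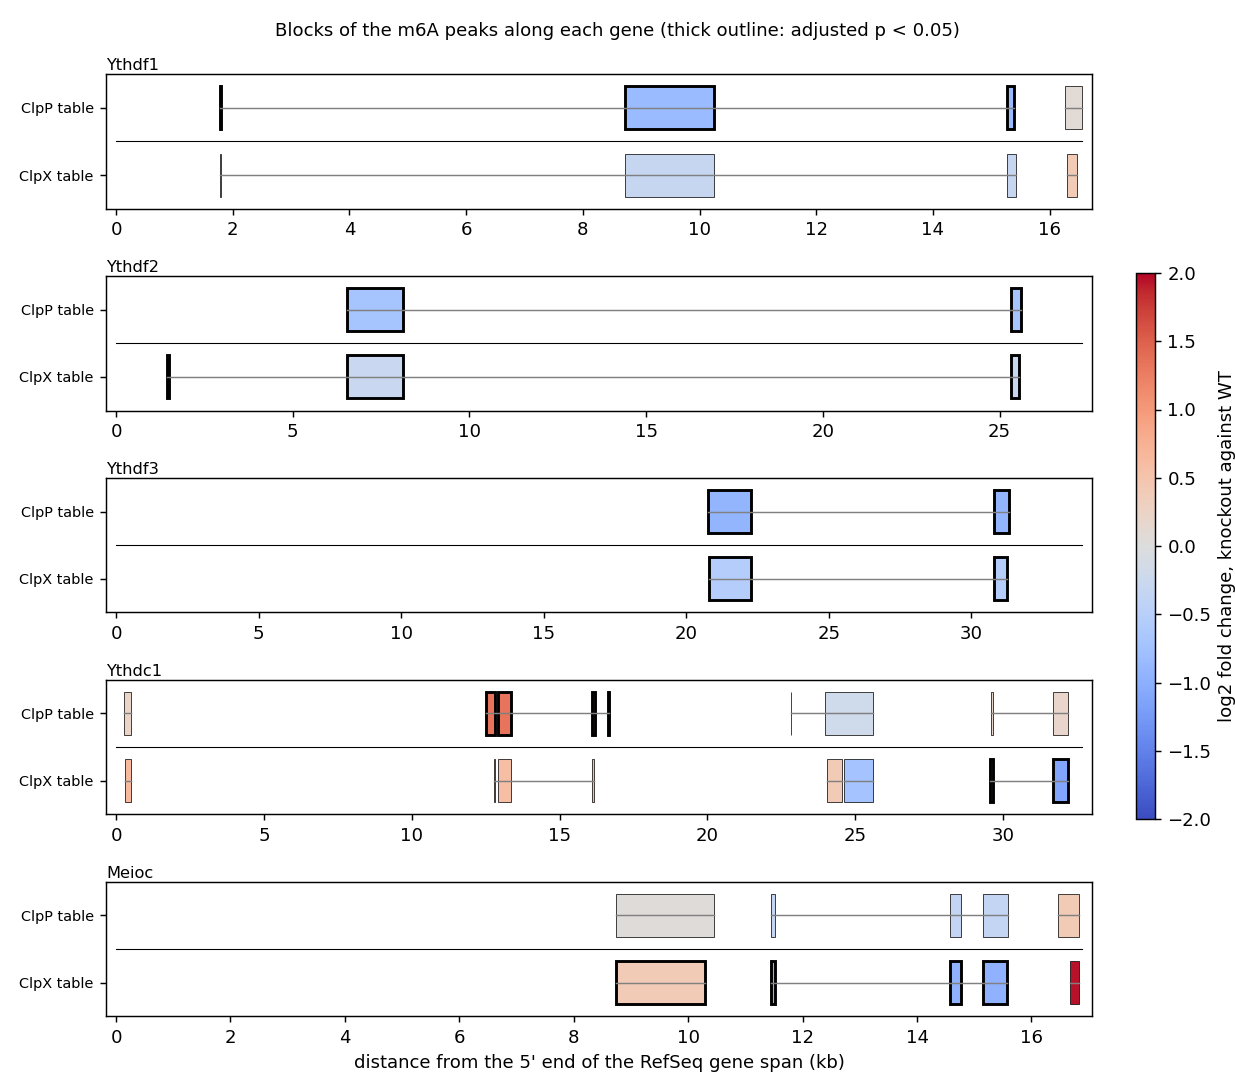
Blocks of the m6A peaks along 5 of the genes, by distance in kb from the 5′ end of the RefSeq gene span, with the ClpP table above and the ClpX table below the line in each panel. Colour gives the log2 fold change of the knockout against WT, a thick outline marks a called peak, and narrow blocks appear as dark bars; the long blocks of the Ythdf genes keep their place in both tables while the Ythdc1 peaks differ in extent.

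In ClpX cKO the log2 fold changes of the same sites were also negative, and nearer to 0 as the authors scaled the values. Ythdf3 peak 1 had -0.54 (0.69 times WT, adjusted p 0.024) and was called lower in the authors' deposited table. Ythdf2 peak 1 had -0.29 (0.82 times WT, adjusted p 0.0398) and was also called in the authors' deposited table. Ythdf1 peak 1 had -0.32 (0.80 times WT, adjusted p 0.0955) and was not called in the authors' deposited table. Implied 95% intervals were -0.94 to -0.14 for Ythdf3 and -0.52 to -0.06 for Ythdf2. Both comparisons use the WT libraries, and no test of ClpX against ClpP was made. Set side by side, the ClpX value exceeded the ClpP value by 0.54 on Ythdf1, 0.42 on Ythdf2 and 0.40 on Ythdf3, on the log2 scale. The tables do not share a zero, with medians of -0.03 (ClpP) and 0.24 (ClpX) over all peaks, and the order depends on it. With the median of strong peaks (those with a p for IP over input under 1e-100) as zero in each table, Ythdf1 had -0.46 for ClpP and -0.41 for ClpX, Ythdf2 -0.31 and -0.38, and Ythdf3 -0.54 and -0.63, so the order turned on Ythdf2 and Ythdf3.

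Ythdc1, the nuclear reader, had the only called increase among the 6 genes in ClpP cKO as the authors scaled the values. Peak 2 of Ythdc1 (chromosome 5, 86816488 to 86820649, 839 bases in 4 blocks) had 1.33 (2.51 times WT, adjusted p 2.34e-07) in the authors' deposited table. Its implied 95% interval was 0.87 to 1.79. The predicted gene Gm43055, on the same strand, had a peak inside it that shares 499 bases, 59.5% of the Ythdc1 peak, and that stood at 1.42 in the authors' deposited table. Reads over those bases cannot be told apart between both genes. The matched site in ClpX cKO was shorter, at 510 bases, and had 0.59 (adjusted p 0.0933, not called) in the authors' deposited table, with 235 bases shared with Gm43055.

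The other Ythdc1 sites did not follow peak 2. In the ClpP table the authors' deposited values were 0.23 at the 5′ end (peak 1), -0.20 on the long peak 3 and 0.20 on peak 4 near the 3′ end, none of them called. The ClpX table splits the long peak into peaks 3 and 4, of 510 and 958 bases, which lie in full inside the ClpP peak of 1617 bases. The authors' deposited ClpX values of these pieces were 0.40 and -0.72, neither called, so both signs occurred within 1 stretch, but the implied intervals were wide (-1.12 to 1.92 and -2.68 to 1.24). Peak 5 of the ClpX table (86833540 to 86836180), 479 bases before the end of the gene span, was called lower at -1.11 (0.46 times WT, adjusted p 0.0398) in the authors' deposited table. The same site had 0.20 for ClpP. Implied 95% intervals were -2.01 to -0.21 for ClpX and -0.51 to 0.91 for ClpP. They overlap and the ClpP interval spans both signs, so a true difference in sign is not shown. Across Ythdc1 the log2 fold changes spanned 1.53 in the ClpP table and 1.74 in the ClpX table.

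Ythdc2 was represented by 1 weak site. The peak on chromosome 18 (44833048 to 44834497, plus strand, 210 bases in 2 blocks) had a fold enrichment of 3.88 and a log2 fold change of 1.84 with an adjusted p of 0.106, so it was not called, in the authors' deposited table. Its implied 95% interval was -0.02 to 3.70. It began 5318 bases after the 5′ end of a gene span of 44827730 to 44889720.

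Meioc, on chromosome 11, had 3 peaks in each table, the first of them 8738 bases after the 5′ end of the gene span. As the authors scaled the values, its called changes were in ClpX cKO. Fold enrichments of peaks 1 and 2 of Meioc were 12.7 and 19.0 in the ClpP table and 16.9 and 16.4 in the ClpX table, as the authors deposited them. Peak 1 (102674089 to 102675647, 1559 bases) was called higher at 0.40 (1.32 times WT, adjusted p 0.00891) in the authors' deposited table. Peak 2 of Meioc (102676799 to 102680918, 660 bases in 3 blocks) was called lower at -0.97 (0.51 times WT, adjusted p 0.0038) in the authors' deposited table. Calls on neighbouring sites of this gene therefore had opposite signs, with implied 95% intervals of 0.14 to 0.66 and -1.55 to -0.40. Peak 3, which ends 63 bases before the end of the gene span, had 1.95 with an adjusted p of 0.169 and a fold enrichment of 2.78 in the authors' deposited table. In ClpP cKO none of the 3 Meioc sites was called, with 0.03, -0.35 and 0.40 in the authors' deposited table. Peak 1 of Meioc in the ClpP table covered 1709 bases and had an implied 95% interval of -0.15 to 0.22.

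**Figure D2:**
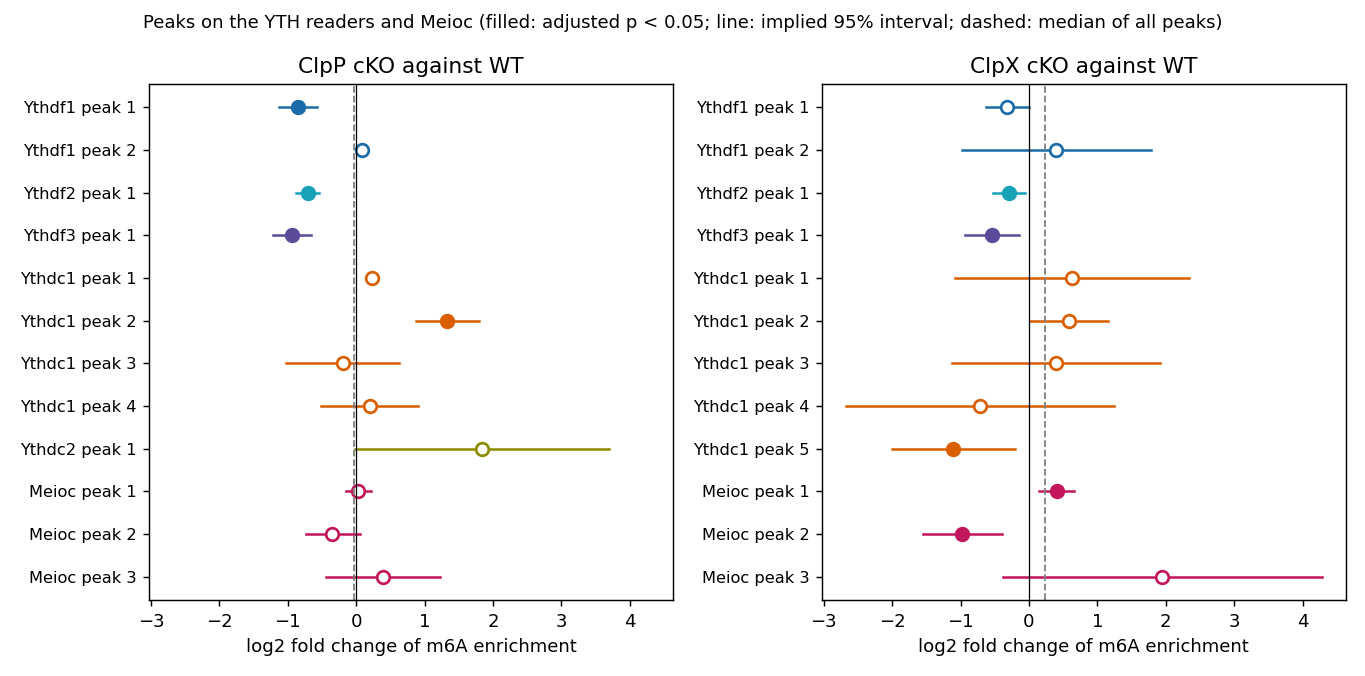
Log2 fold change of m6A enrichment at each peak of the 6 genes, ClpP cKO against WT on the left and ClpX cKO against WT on the right. Filled points are called peaks, lines are the 95% intervals implied by the authors' p where these could be computed, and dashed lines mark the median of all peaks; the called peaks are 4 on the left (3 lower, 1 higher) and 5 on the right (4 lower, 1 higher).

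Of the 12 peaks in the ClpP comparison, 1 was called higher and 3 lower, 33.3% in all, against 19.6% of all peaks of the table (6.74% higher and 12.8% lower). In the ClpX comparison 1 of 12 was called higher and 4 lower, 41.7% in all, against 20.1% of all peaks (15.1% higher and 5% lower). The median log2 fold change over the 12 peaks was 0.06 in both comparisons, against -0.03 and 0.24 over all peaks. Strongly supported peaks were called more often than all peaks in both tables. Among the 3178 ClpP peaks whose own p for IP over input was under 1e-100, 54.4% were called, 49.8% lower and 4.53% higher, with a median of -0.40. Of the 6 peaks of these genes in that class, 3 were called lower and 1 higher, so the share of decreases was near that of strong peaks in general. The Ythdf1, Ythdf2 and Ythdf3 peaks lay at percentiles 14.5, 23.6 and 11.2 of log2 fold change within the strong peaks, and the Ythdc1 peak at 99.8. For ClpX 48% of 2602 strong peaks were called, 16.8% lower and 31.2% higher, and 3 of the 6 strong peaks of these genes were lower and 1 higher. Meioc peak 2 lay at percentile 7.3 there.

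The log2 fold change was lower at high fold enrichment, more so in the ClpX table. With peaks cut into 5 quintiles by fold enrichment, the ClpP median went from 0.17 in the least enriched to -0.17 in the most. In the ClpX table the median log2 fold change fell from 0.81 in the least enriched quintile (up to 3.79) to -0.27 in the most enriched (17.2 to 220.0). The 3 main Ythdf peaks all belonged to the most enriched quintile of that table, with fold enrichments of 21.9, 23.2 and 51.1 in the authors' deposited table. Relative to the median of that quintile their differences were -0.05 for Ythdf1, -0.02 for Ythdf2 and -0.27 for Ythdf3, and the calls on Ythdf2 and Ythdf3 were lost. The ClpX values of Ythdf1 and Ythdf2 were thus near the middle of equally enriched peaks, at percentiles 48.1 and 49.2 within the quintile. In the ClpP table the same step left -0.79, -0.54 and -0.76, each still called (adjusted p 2.66e-07, 2.61e-08 and 6.63e-07). Ythdc1 peak 5 kept its call for ClpX at -1.33 relative to its quintile, as did Meioc peak 1 at 0.40 and Meioc peak 2 at -0.97.

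**Figure D3:**
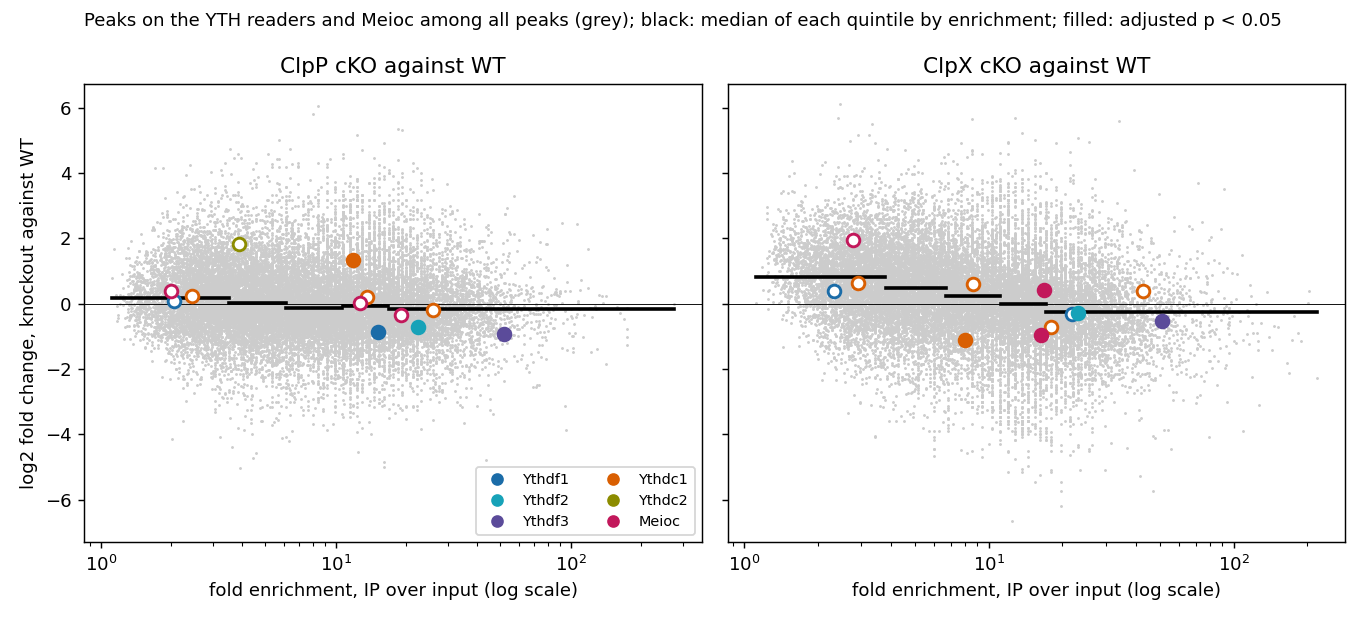
Log2 fold change against fold enrichment of IP over input (log scale), with all peaks in grey, the median of each quintile by enrichment as black lines, and the peaks of the 6 genes coloured by gene, filled where called. The 3 main Ythdf peaks (peak 1 of each gene) stand below the black line on the left (ClpP) and on or close to it on the right (ClpX).

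Other choices of zero moved the ClpX calls. The median of all ClpX peaks was 0.239, and after it was subtracted Ythdf1 peak 1 was also called lower, at -0.55 (adjusted p 0.00248), while the call on Meioc peak 1 was lost (0.16, adjusted p 0.282). With the median of strong peaks as zero, the 3 Ythdf peaks were called lower in both comparisons, at -0.46, -0.31 and -0.54 for ClpP and -0.41, -0.38 and -0.63 for ClpX. In that scaling Meioc peak 1 at 0.43 and Ythdc2 at 2.24 (adjusted p 0.0467) were called higher for ClpP. The Ythdc2 peak is not itself a strong peak, and relative to its quintile it had 1.81 and was not called (adjusted p 0.115). Under these scalings 19.4% (all peaks), 18.5% (quintiles) and 20.1% (strong peaks) of all ClpP peaks were called, and 18.8%, 14.3% and 19.6% of all ClpX peaks. The 3 Ythdf peaks and Ythdc1 peak 2 for ClpP, and Ythdc1 peak 5 and Meioc peak 2 for ClpX, were called under each of the 4 scalings. The authors' p behaved more like a one-sided than a two-sided value. With each p doubled, 16.4% of all ClpP peaks and 17% of all ClpX peaks were called. The 4 ClpP calls on these genes stood, while the ClpX calls on Ythdf2 and on Ythdc1 peak 5 ended (adjusted p 0.0795 for each) and those on Ythdf3 (0.0475) and Meioc peaks 1 and 2 stood.

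**Figure D4:**
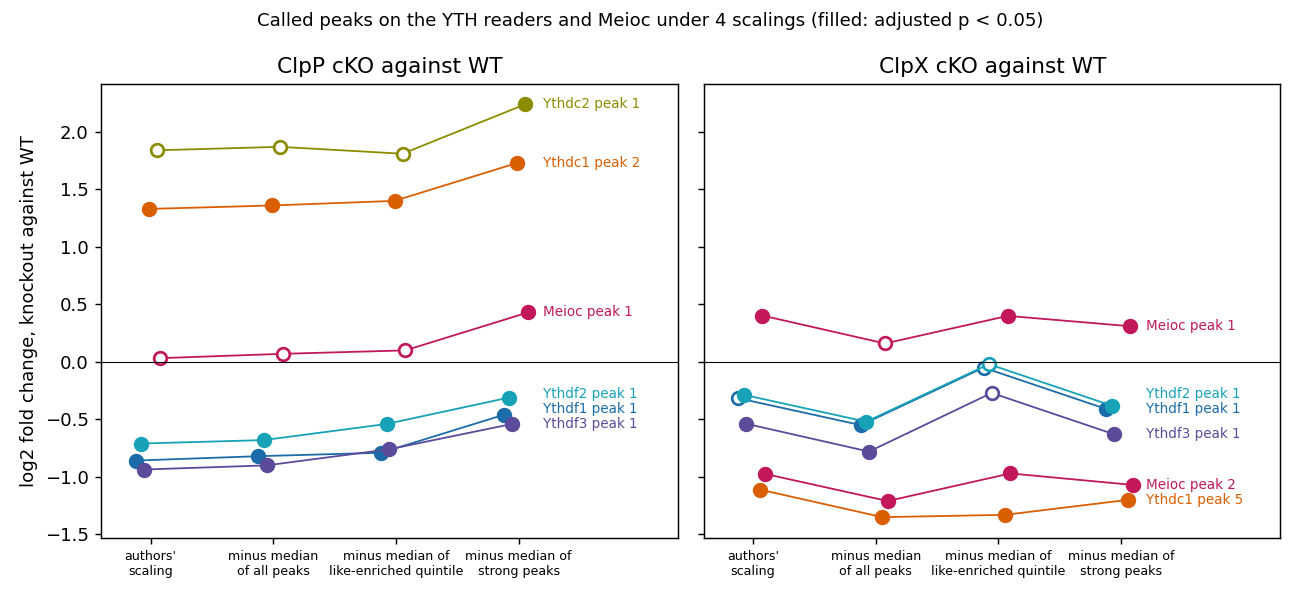
Log2 fold change of peaks called under at least 1 of 4 scalings, as the authors scaled them, after subtracting the median of all peaks, of the quintile of like fold enrichment, or of the strong peaks. Filled points have an adjusted p under 0.05; for ClpX the calls on Ythdf2 and Ythdf3 are lost after the median of like-enriched peaks is subtracted, while the ClpP values of the same sites stay called throughout.

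Matching by position paired 11 of the 12 sites in each table, each pair on the same gene, against 77.4% of all ClpP peaks and 78.9% of all ClpX peaks. The sites left over were Ythdc2 peak 1 in the ClpP table and Ythdc1 peak 3 in the ClpX table. Shared bases made up at least 91.2% of either peak on the main Ythdf sites and on Meioc peaks 1 and 2. The overlap was less complete on Ythdc1 peak 2, where the ClpX peak covered 60.8% of the ClpP peak, on Ythdf1 peak 2 (60.0%), on the long Ythdc1 peak 3 of the ClpP table (59.2%, by peak 4 of the ClpX table) and on Meioc peak 3 (41.8%). Values at those sites therefore describe partly different stretches. The Ythdf2 peak of the ClpX table had 1 more block, of 56 bases, (132210752 to 132210807) toward the 5′ end of the gene that the ClpP peak did not include.

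Other genes of m6A regulation were taken from 5 fixed lists, each gene by its peak with the smallest p, so the site can differ between comparisons. Of 34 genes, 30 had a peak in each table. For ClpP 4 were called higher and 8 lower, beside 28.8% of all genes called in either direction, with medians of -0.16 for the lists and -0.16 for all genes. For ClpX 8 were higher and 4 lower, beside 29.3% of all genes, with medians of 0.46 and 0.36.

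The CCR4-NOT deadenylase, which YTHDF2 recruits, had calls in both directions, as all genes together did. Over all genes read by their peak of smallest p, 9.5% were called higher and 19.3% lower for ClpP. For ClpX these shares were 21.7% and 7.58%, and they stand beside every count in this paragraph. For ClpP 2 of its 8 measured subunits were higher and 1 lower, namely Cnot11 at 1.48 and the catalytic subunit Cnot7 at 0.63, and Cnot2 at -1.36, in the authors' deposited table. The Cnot7 call was lost when its p was doubled (adjusted p 0.0579) and relative to like-enriched peaks (adjusted p 0.116). For ClpX 2 of 9 were higher and 1 lower, with Cnot8 at 3.24 and Cnot3 at 1.61, and Cnot7 at another site at -1.45, in the authors' deposited table. Among partners of YTHDC1 and YTHDC2, the germ cell RNA-binding protein gene Rbm46 had a site called lower for ClpP in the authors' deposited table, at -0.57 (chromosome 3, 82842516 to 82866645). Another site of Rbm46 (82837228 to 82837937) was called higher for ClpX in the authors' deposited table, at 1.54, a call lost relative to like-enriched peaks (adjusted p 0.0698). The splicing factor gene Srsf3, a partner of YTHDC1, was called higher for ClpP at 0.98 in the authors' deposited table. In the remaining lists, writers and demethylases had 1 higher and 5 lower of 10 genes for ClpP and 3 of each direction for ClpX, and other readers had 0 higher and 1 lower of 7, then 2 higher and 0 lower. In the authors' deposited table the ClpP calls of smallest adjusted p were the reader gene Prrc2a (-0.81) and writers Virma (-0.98) and Rbm15b (-0.93). Those for ClpX were Prrc2a at another site (1.34), the writer-associated Cbll1 at 1.83 and the demethylase Alkbh5 at 1.49, in the authors' deposited table. The ClpX sites of Prrc2a and Cbll1 had fold enrichments of 1.87 and 3.56, in the least enriched quintile, whose median log2 fold change was 0.81. Relative to like-enriched peaks these ClpP and ClpX calls stood, with the ClpX values of Prrc2a at 0.53 and Cbll1 at 1.02. The ClpX peak of Cbll1 shares bases with a peak of Gm29542.

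The genes of these lists whose matched sites lay nearest to the Ythdf genes were found by Euclidean distance over the log2 fold changes of both comparisons, which share the WT libraries. The median of the 4 Ythdf pairs was -0.784 for ClpP and -0.301 for ClpX. Among 52 pairs on 27 genes, the nearest were on the demethylase Fto (-0.82 and -0.24, distance 0.07), on Cnot3 (-0.70 and -0.31, distance 0.079) and on Rbm15b (-0.93 and -0.13, distance 0.226) in the authors' deposited tables. None of the Cnot3 values at that site was called, and Fto and Rbm15b were called for ClpP.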

How the data were processed

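m6A-seq of 6 libraries (IP and input of WT, ClpP cKO and ClpX cKO) was read from 2 tables of the authors' own comparisons. Per the file headers, each line is a peak with its blocks, its p-value, and scores that are the log10 of p and adjusted p, for the peak and for the difference. The authors deposited, for each peak, a linear ratio of IP to input (fold enrichment) and the log2 fold change between genotypes. Per the submitters' processing notes the genome build was GRCm38 (mm10), while aligner, peak caller and library scaling are not given in the sources. Depth per library is therefore unknown, and no test across replicates was possible with 1 library per group.

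Starts were made 1-based, and scores were turned back into p-values. Strong peaks without a difference had a p near 0.5 (median 0.504 and 0.513), as a one-sided p would. Over all peaks, however, 19.4% (ClpP) and 20.0% (ClpX) of p-values lay above 0.5. A one-sided p in the direction of the change would not reach that. Implied errors took z from a one-sided p, which is an assumption. They were left out below z of 0.3, where the median error of peaks of like support was used for new calls. Calls after rescaling used the Benjamini-Hochberg adjustment over the whole table, and the code was tested on simulated data. Peaks were paired by at least 1 shared base of blocks on the same strand, best mutual pair. Python 3.11.15, pandas 2.3.3, numpy 2.4.6, scipy 1.17.1 and matplotlib 3.10.9 were used.

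The genes, lists and named-gene rule (every peak of the 6 genes; called CCR4-NOT and YTHDC partner genes; up to 3 called genes of the other lists by smallest adjusted p; the 3 nearest genes) were chosen with earlier results of these data known. The strong-peak class and the scalings other than the median of all peaks were added after the values were seen. Of the peaks' sequences, only the part of a Ythdc1 peak inside the RefSeq promoter window was searched.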

Additional observations from a re-analysis of the deposited data

Results flagged for a closer look

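The site near the 3′ end of Ythdc1 had opposite signs in the 2 comparisons, at 0.20 for ClpP (peak 4, not called) and -1.11 for ClpX (peak 5, called lower) in the authors' deposited tables. Implied 95% intervals were -0.51 to 0.91 for ClpP and -2.01 to -0.21 for ClpX, which overlap, and the ClpP interval spans both signs. The peaks share 570 bases, all of the ClpP peak, and their fold enrichments were 13.6 and 8.02. The difference was not tested, both comparisons use the WT libraries, and the ClpX call was lost when p was doubled (adjusted p 0.0795).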

How the results depend on the processing

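Of 34 counts of calls or of matched sites recomputed under alternatives, 28 stayed within 1.5 times. When calls also needed a log2 fold change of 1 or more in size, the called peaks of the YTH genes and Meioc numbered 1 for ClpP and 1 for ClpX, and the called genes of the m6A lists 2 for ClpP. Of all peaks 9.15% (ClpP) and 13.7% (ClpX) were then called, and of all ClpP genes 13.9%. For ClpX the 5 called peaks became 2 with an adjusted p under 0.01, 3 with p doubled and 3 relative to the like-enriched quintile. Of all ClpX peaks 14.1%, 17% and 14.3% were called at these settings. Doubling p ended the ClpX calls on Ythdf2 and on Ythdc1 peak 5. The split turned from 1 higher and 4 lower to 0 and 5 for ClpX after centring on the median of all peaks. Of all ClpX peaks 10.9% were then called higher and 7.85% lower. For ClpP the split turned from 1 and 3 to 3 and 3 with the strong peaks as zero. Of all ClpP peaks 14.7% were then called higher and 5.38% lower. Without peaks shared with another gene, the 1 increase for ClpP, on Ythdc1, was left out and 3 calls stood, beside 19.2% of all unshared ClpP peaks. Over the 24 peaks and 4 settings, 87 of 96 values kept their side of the threshold, 5 lost a call, 4 gained one and 0 changed sign while called. Matched sites numbered 11 with blocks, with spans and with an overlap of 50% of the shorter peak. No paired analysis was possible because each group holds 1 library. Small differences cannot be resolved at sites with wide implied intervals. In the ClpX table these include the weakly enriched Meioc peak 3 (fold enrichment 2.78, interval -0.38 to 4.28). They also include the highly enriched Ythdc1 peak 3 (fold enrichment 42.7, interval -1.12 to 1.92).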

Other observations

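The p-values for the difference in the authors' deposited tables did not behave as two-sided values. Among peaks whose own p was under 1e-100 and whose absolute log2 fold change was under 0.02, the median p was 0.504 over 76 ClpP peaks and 0.513 over 53 ClpX peaks, and the largest p of either table was 0.778. Over all peaks, 19.4% (ClpP) and 20.0% (ClpX) of p-values were above 0.5, so a one-sided reading does not account for all of them. The authors' adjusted p lay within 0.05 on the log10 scale of a Benjamini-Hochberg adjustment of these p-values for 99.4% (ClpP) and 99.3% (ClpX) of peaks.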
